A study of Mus musculus with 16 samples.

Results

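The genes described here make cholesterol, fatty acids and sphingolipids, including the galactolipids of myelin, and they were followed in the inner ear of mice that carry an additional source of the miR-183 cluster. Of 40 listed genes, 39 were represented by a probeset that the platform table pairs with a single symbol, out of 19937 genes so named, and Acat2 was not analysed here. They fall into 16 enzymes of the sterol pathway, 5 regulators or transporters of sterols, 11 genes of fatty acid synthesis, elongation and desaturation, and 7 genes of sphingolipid and galactolipid synthesis. The genes were listed by what their products do, but with earlier results of these same arrays known. The study had already listed Fa2h and Ugt8a among the genes lowered at P5 in these arrays.

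RNA came from 4 groups of FVB/NCrl mice: microdissected organ of Corti (OC) at postnatal day 5 (P5) from 5 transgenic and 5 wild-type (WT) samples, and cochlea at P18 from 3 transgenic and 3 WT samples. The transgenic samples were homozygous for Tg(GFAP-Mir183,Mir96,Mir182)1MDW, called Tg1MDW/1MDW here, a single founder line in which the core human GFAP promoter drives miR-183, miR-96 and miR-182. This promoter is active in glia and in the supporting cells of the OC. In this line, the study saw miR-182 in supporting cells and Schwann cells by in situ hybridization at P18. It could not see clear differences from WT this way at P5. Each sample was hybridised to an Affymetrix MoGene 1.0 array. The labels do not say whether an array held RNA of 1 animal or of several, and the tissue changes together with the age. Groups were read from the sample titles, because other label fields give conflicting ages, tissues and genotypes. Levels are log2 signals as deposited, so a difference of 1 is a doubling, and they do not compare the abundance of different genes. A call means a Benjamini-Hochberg adjusted p under 0.05 over all probesets in limma.

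Cells build cholesterol from acetyl-CoA through mevalonate, isoprenoid diphosphates, squalene and lanosterol. SREBP transcription factors, held in the endoplasmic reticulum by INSIG proteins with their escort SCAP, raise transcription of these enzymes and of fatty acid synthesis genes when sterols are low. Sphingolipids start from serine and palmitoyl-CoA, and hydroxylated ceramides that receive galactose become the cerebrosides and sulfatides in which myelin is rich. Schwann cells, which wrap the axons of the spiral ganglion neurons, make myelin in the first postnatal weeks and draw on all of these branches.

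To show the regulatory sequence of the genes that the results turn on, RefSeq promoter windows (GRCm38.p6, 250 bases before to 50 after a transcription start) were searched on both strands for 5 short motifs. Promoters of Hmgcs1 (chr13:119690101-119690400, plus strand), Idi1 (chr13:8885356-8885655, plus strand) and Mvd (chr8:122443373-122443672, minus strand) are shown because these sterol enzymes were lower in the transgenic OC, and that of Ugt8a (chr3:125938603-125938902, minus strand) because it led the galactolipid genes with Fa2h. Capitals mark CCAAT (the NF-Y motif), GGGCGG (the Sp1 motif) and TCACNCCAC (the core of a sterol regulatory element), or their reverse complements.
Hmgcs1: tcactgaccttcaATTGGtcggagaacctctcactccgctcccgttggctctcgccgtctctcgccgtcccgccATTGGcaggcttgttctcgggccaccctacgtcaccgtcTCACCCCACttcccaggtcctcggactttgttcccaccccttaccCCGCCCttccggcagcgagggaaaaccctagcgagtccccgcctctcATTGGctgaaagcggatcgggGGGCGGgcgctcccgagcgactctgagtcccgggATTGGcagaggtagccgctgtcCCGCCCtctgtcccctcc
Idi1: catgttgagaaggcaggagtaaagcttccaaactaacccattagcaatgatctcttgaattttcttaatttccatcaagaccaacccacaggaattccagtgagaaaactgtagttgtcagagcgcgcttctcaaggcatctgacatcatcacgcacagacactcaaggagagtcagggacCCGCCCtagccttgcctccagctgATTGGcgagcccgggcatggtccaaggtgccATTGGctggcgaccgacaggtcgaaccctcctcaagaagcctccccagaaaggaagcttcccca
Mvd: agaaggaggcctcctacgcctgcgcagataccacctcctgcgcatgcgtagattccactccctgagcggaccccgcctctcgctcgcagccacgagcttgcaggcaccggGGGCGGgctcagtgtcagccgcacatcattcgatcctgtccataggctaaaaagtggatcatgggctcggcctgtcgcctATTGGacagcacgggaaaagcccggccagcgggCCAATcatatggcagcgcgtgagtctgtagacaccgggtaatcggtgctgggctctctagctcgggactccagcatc
Ugt8a: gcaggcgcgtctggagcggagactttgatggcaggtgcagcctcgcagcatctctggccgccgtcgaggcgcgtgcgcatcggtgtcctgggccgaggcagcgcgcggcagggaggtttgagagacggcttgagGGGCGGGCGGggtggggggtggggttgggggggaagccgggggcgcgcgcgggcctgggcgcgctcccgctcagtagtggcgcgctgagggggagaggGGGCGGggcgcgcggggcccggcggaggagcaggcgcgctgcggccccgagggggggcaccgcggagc

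In these windows, Hmgcs1 held TCACCCCAC 137 bases before the start, together with 4 CCAAT and 3 GGGCGG matches. Idi1 and Mvd each held 2 CCAAT matches and 1 GGGCGG match, whereas Ugt8a held no CCAAT and 3 GGGCGG matches, of which 2 overlap. Of 31 members with a promoter in the table, 13 were sterol enzymes, and 13 of these 13 held CCAAT, against 41.1% of all 27025 genes with a promoter. GGGCGG was present in 12 of the 13, against 38.2% of all genes. Among 8 fatty acid genes, 4 held CCAAT and 4 held GGGCGG, and among 6 sphingolipid genes, 4 held each of them. TCACNCCAC was found in 1 member, Hmgcs1, and in 1.44% of all genes. CACGTG (an E-box) was found in 8 of the 31 members and 8.09% of all genes, and GCGTGGG (the Egr family motif) in 4 members and 5.74% of all genes. Of the members called lower at P5, 7 had a promoter in the table, and Fa2h had none. CCAAT was present in 4 of these 7 (57.1%), against 77.4% of all members, and GGGCGG in 6. CACGTG and GCGTGGG were present in 0 of the 7, and Elovl6 held no match to any motif. Where a gene has several windows, as 8 members do, a match in any of them was counted. A match describes these letters and not a bound site.

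The transgene was seen at both ages. The Mir182 probeset had a mean log2 signal of 8.29 ± 0.32 (SD, n = 5) in Tg1MDW/1MDW and 4.83 ± 0.46 (SD, n = 5) in WT at P5, and 7.96 ± 0.02 (SD, n = 3) and 3.88 ± 0.05 (SD, n = 3) at P18, with no overlap between genotypes. Arrays of a group correlated at r = 0.980 to 0.995 over all probesets. Tg1MDW/1MDW replicate 3 at P5 had the lowest mean correlation with its own group, 0.983, against 0.988 for each of the other 4. Y-linked genes separated the P5 arrays: their mean log2 signal was 8.86 in 1 Tg1MDW/1MDW array and 3.90 to 4.06 in the other 4, and 3.95 in 1 WT array and 8.61 to 8.96 in the other 4. Xist, the RNA of the inactive X, had a mean of 10.39 in Tg1MDW/1MDW and 6.04 in WT at P5. The labels do not give the sexes. At P5, Y-linked signal thus largely followed genotype, and sex cannot be fully told apart from genotype there. At P18 the Y-linked means were 7.65 to 7.66 in Tg1MDW/1MDW and 7.22 to 7.34 in WT. Xist was at least 9.27 and 8.96 there, so every P18 array carried both signals. Mean signals over 10 hair cell markers were 7.89 to 8.12 and over 10 supporting cell markers 9.71 to 10.22 at P5, and 7.33 to 7.40 and 8.72 to 8.80 at P18, against array medians of 6.33 to 6.63. Lower quartiles of the arrays began at 4.54, and no member had a mean below this level.

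In the P5-OC, 8 lipid genes were lower in Tg1MDW/1MDW than in WT, with the largest changes in Fa2h and Ugt8a, which make the galactolipids of myelin, and smaller ones in 3 sterol enzymes and 3 fatty acid elongases. Of the 39 members, 8 were thus called lower and 0 higher, beside 0.858% of all genes called lower and 0.0752% called higher. Since the members were listed with earlier results of these arrays known, this count is not a separate test. At an unadjusted p under 0.05, 21 members were lower and 1 higher, beside 11.5% of all genes lower and 6.15% higher. The log2 change was negative for 38 of 39 members, beside 11575 of all 19937 genes, with a median of -0.17 over the members and -0.03 over all genes. For 11 members every transgenic array lay below every WT array, beside 1.79% of all genes, and for 1 member, Fads2, every transgenic array lay above, beside 0.396% of all genes.

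Fa2h, which hydroxylates the fatty acids of myelin galactolipids, read 7.22, 7.14, 6.66, 6.58 and 6.57 in the 5 Tg1MDW/1MDW arrays and 8.66, 8.76, 8.89, 8.81 and 8.91 in the 5 WT arrays. The groups were far apart, and transgenic replicates 1 and 2 stood above the other 3. Fa2h was 3.93-fold lower in the transgenic OC (log2 change -1.97 ± 0.12 SE, adjusted p = 1.45e-07, limma). Ugt8a, the ceramide galactosyltransferase that makes galactosylceramide, read 8.03, 8.14, 7.95, 7.58 and 7.59 in Tg1MDW/1MDW and 9.49, 9.77, 9.33, 9.08 and 9.15 in WT. It was 2.84-fold lower (log2 change -1.51 ± 0.13 SE, adjusted p = 1.03e-05, limma), and its groups were also separate. Gal3st1, which adds sulfate to galactosylceramide to give sulfatide, read 7.16, 7.15, 7.36, 7.11 and 7.13 in Tg1MDW/1MDW and 7.65, 7.24, 7.68, 7.86 and 7.77 in WT. WT replicate 2 fell among the transgenic arrays, and the difference missed the threshold (log2 change -0.45 ± 0.10 SE, adjusted p = 0.051, limma). The genes of the common sphingolipid path had smaller differences, none of them called. They were -0.12 for Sptlc2, a subunit of serine palmitoyltransferase, -0.0046 for Cers2, a ceramide synthase, -0.11 for Degs1, the dihydroceramide desaturase, and -0.22 for Sgms1, which makes sphingomyelin.

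Of the sterol enzymes, 3 of 16 were called lower at P5, and all 16 log2 changes were negative, beside 11575 of all 19937 genes. Hmgcs1, the cytosolic HMG-CoA synthase at the head of the mevalonate path, read 9.14, 8.84, 8.96, 8.96 and 8.996 in Tg1MDW/1MDW and 9.54, 10.03, 9.42, 9.38 and 9.42 in WT. WT replicate 2 was well above its group, and without overlap of the groups Hmgcs1 was 1.49-fold lower in the transgenic OC (log2 change -0.58 ± 0.10 SE, adjusted p = 0.0141, limma). Idi1, which isomerises isopentenyl diphosphate, read 7.76, 7.72, 7.60, 7.43 and 7.51 in Tg1MDW/1MDW and 8.47, 8.68, 7.90, 8.02 and 8.05 in WT. WT replicates 1 and 2 were higher than the other 3 WT arrays, all of which were above the transgenic arrays, and Idi1 was 1.54-fold lower (log2 change -0.62 ± 0.13 SE, adjusted p = 0.035, limma). Its second probeset gave a log2 change of -0.74 (adjusted p = 0.0558, limma). Mvd, the decarboxylase that makes isopentenyl diphosphate, read 7.37, 7.39, 7.45, 7.44 and 7.42 in Tg1MDW/1MDW and 7.69, 7.60, 7.66, 7.90 and 7.74 in WT. The transgenic arrays were tightly grouped below the WT arrays, with Mvd 1.24-fold lower (log2 change -0.30 ± 0.06 SE, adjusted p = 0.0395, limma).

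The groups of 2 other sterol enzymes were also separate at P5 without passing the threshold: Fdps, the farnesyl diphosphate synthase, with a log2 change of -0.34 (adjusted p = 0.056, limma), and Cyp51, the lanosterol demethylase, with -0.53 (adjusted p = 0.0875, limma). Fdft1, the squalene synthase, and Sqle, Lss, Sc5d and Dhcr7, which act from squalene to cholesterol, had log2 changes of -0.17 to -0.30, each with an unadjusted p under 0.05 and none called. The differences were smallest for Hsd17b7 (-0.01), Mvk (-0.03) and Tm7sf2 (-0.05), and were -0.10 for Pmvk, -0.10 for Nsdhl and -0.15 for Ebp. Of the 5 regulators and transporters, 0 were called in limma, and 1, Insig1, was lower at an unadjusted p under 0.05. Insig1, whose product retains SREBP and whose gene is itself a target of SREBP, had a log2 change of -0.41 (adjusted p = 0.175, limma) with overlapping groups. Those of Srebf1, Srebf2, Scap and the sterol carrier Stard4 lay between -0.13 and -0.01.

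Of the fatty acid genes, 3 of 11 were called lower at P5, and these were 3 of the 4 elongases among the members. Elovl7, an elongase of long saturated chains, read 7.32, 7.31, 7.52, 7.04 and 7.22 in Tg1MDW/1MDW and 7.85, 7.86, 7.72, 7.56 and 7.74 in WT, where the highest transgenic array lay just below the lowest WT array (log2 change -0.46 ± 0.08 SE, adjusted p = 0.0128, limma). Elovl1, an elongase of very long chains, read 9.81, 9.87, 9.996, 10.02 and 9.96 in Tg1MDW/1MDW and 10.28, 10.08, 10.43, 10.41 and 10.39 in WT (log2 change -0.39 ± 0.07 SE, adjusted p = 0.0169, limma). WT replicate 2 was the lowest of its group and stood just above the transgenic arrays. Elovl6, which lengthens palmitate, read 9.75, 9.68, 9.75, 9.70 and 9.67 in Tg1MDW/1MDW and 10.18, 10.18, 10.004, 10.04 and 10.06 in WT (log2 change -0.38 ± 0.07 SE, adjusted p = 0.00898, limma). Its transgenic arrays spanned a narrow range that all WT arrays exceeded. The fourth elongase, Elovl5, had a log2 change of -0.02. Acaca, the acetyl-CoA carboxylase, was separate between groups but not called (log2 change -0.30 ± 0.08 SE, adjusted p = 0.119, limma), and its second probeset gave -0.12. The remaining differences were -0.21 for Acly, -0.10 for Fasn, -0.08 for Scd2, -0.08 for Fads1 and -0.05 for Scd1. Fads2, a desaturase of polyunsaturated fatty acids, had the positive difference, 0.16 (adjusted p = 0.19, limma).

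**Figure D1:**
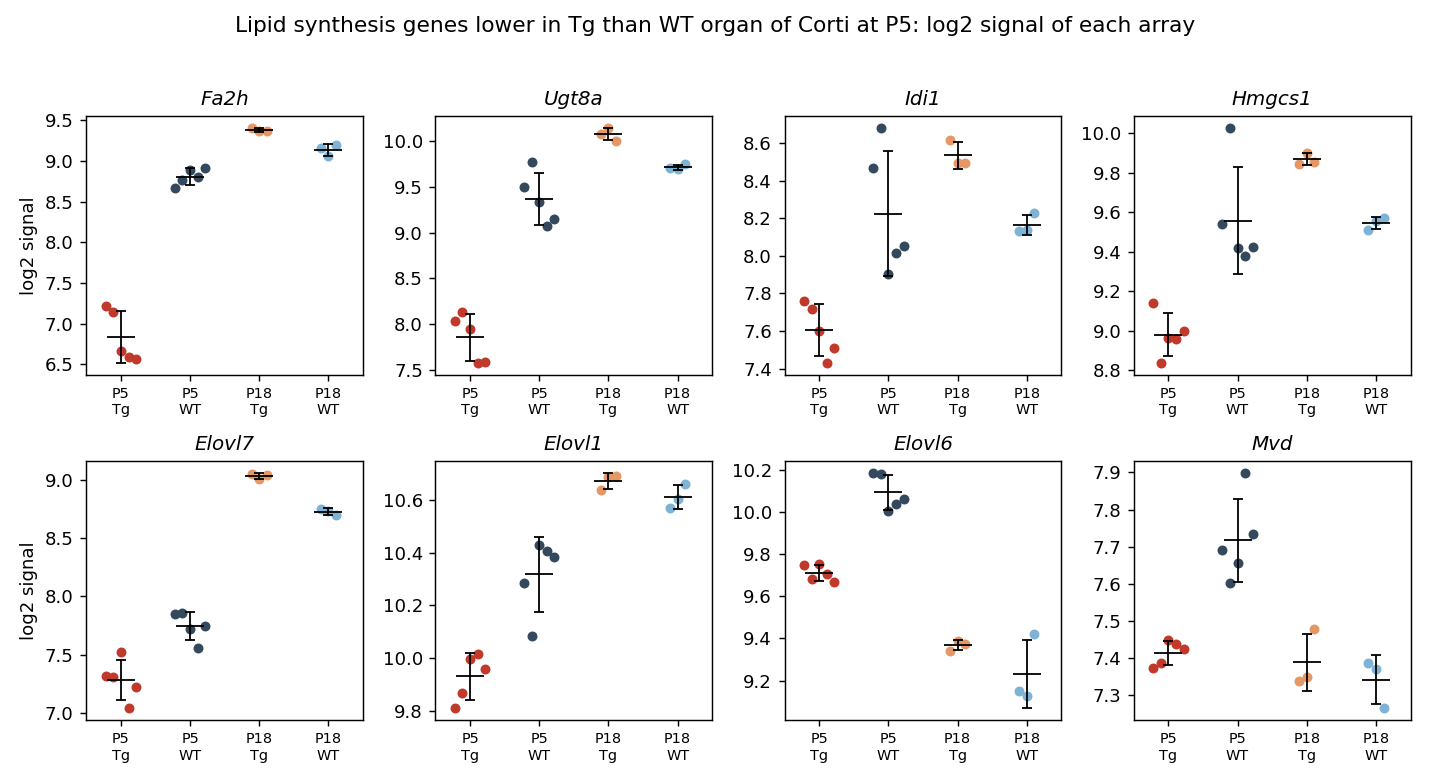
Log2 signal (y axis) of the 8 lipid synthesis genes called lower at P5, in each array of the 4 groups (x axis). Points are arrays, and the bar with whiskers is the mean ± SD of 5 arrays at P5 and 3 at P18. At P5 the Tg1MDW/1MDW arrays lie below the WT arrays in all 8 panels, by 1.97 on average for Fa2h and 0.30 for Mvd.

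These calls differed in how firmly they held. Fa2h and Ugt8a were called in all 25 alternatives that changed the fit or the arrays, Elovl7 in 23, Hmgcs1 and Elovl6 in 22, Elovl1 in 19, Idi1 in 12 and Mvd in 8. With the mean of the Y-linked genes, which largely followed genotype at P5, as a covariate, 2 of the 8 calls were left, Fa2h and Ugt8a. Over all genes, 59 were then called lower, against 171 in the main fit. The log2 changes of the other 6 members were -0.50 for Hmgcs1, -0.64 for Idi1, -0.31 for Mvd, -0.42 for Elovl1, -0.40 for Elovl6 and -0.49 for Elovl7. When P5 was fitted without the P18 arrays the same 2 were left, beside 74 of all genes called lower. Without Tg1MDW/1MDW replicate 3 at P5, 15 members were called lower, beside 1159 of all 19937 genes called lower. In both genotypes, P5 replicates 1 and 2 stood apart from replicates 3 to 5 in some members, such as Scd1. With a term for this split, 11 members were called lower at P5, adding Gal3st1, Fdps and Insig1, beside 251 of all genes, and 8 were called for the difference between the genotype effects at the 2 ages, adding Gal3st1 and Elovl1, beside 281 of all genes.

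Markers of myelinating Schwann cells were lower as well. They were listed with earlier results of the same arrays known, so their calls are not a separate test. Of 13 measured genes of the Schwann cell myelin sheath, 12 were called lower at P5, beside 0.858% of all genes, with a median log2 change of -1.08. Their mean log2 signal ran from 7.71 to 8.20 in Tg1MDW/1MDW and from 9.29 to 9.43 in WT. Mag, a myelin adhesion protein, had a log2 change of -2.23 ± 0.12 SE, and Egr2, the transcription factor of myelination, -1.59 ± 0.13 SE. Of 12 genes of the Schwann lineage apart from myelin, 2 were called lower, Dhh (log2 change -0.78 ± 0.09 SE) and Cadm4 (-0.39 ± 0.08 SE). At an unadjusted p under 0.05, 5 of the 12 were lower and 0 higher, beside 11.5% of all genes lower and 6.15% higher. The median over the 12 was -0.20, with mean signals of 8.44 to 8.67 in Tg1MDW/1MDW and 8.50 to 8.87 in WT. No gene was called at P5 among 10 markers of central oligodendrocytes, 8 of adipocytes, 10 of hair cells, 10 of supporting cells, 8 of macrophages and 10 of skeletal muscle. At an unadjusted p under 0.05 in limma, 2 oligodendrocyte, 1 adipocyte and 2 muscle markers were higher, and 1 each of the oligodendrocyte, hair cell, supporting cell, macrophage and muscle markers was lower. The part of Schwann cell number in the lipid gene differences was not tested, and in these bulk samples fewer cells of a type and less RNA per cell cannot be told apart.

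All branch medians were negative at P5. Median log2 changes were -0.22 for the sphingolipid and galactolipid genes, -0.20 for the sterol enzymes, -0.13 for the regulators and transporters and -0.10 for the fatty acid genes. Averaged over its 7 genes, the sphingolipid and galactolipid branch ran from 8.53 to 8.73 in Tg1MDW/1MDW and from 9.21 to 9.29 in WT. Fa2h and Ugt8a carried most of this gap: the mean log2 change was -0.63 over the 7 genes and -0.18 over the 5 others, against -0.25 over the 16 sterol enzymes. The sterol enzymes ran from 8.05 to 8.18 and from 8.26 to 8.47, and the fatty acid genes from 9.97 to 10.09 and from 10.12 to 10.29. In these 3 branches the means of the 2 genotypes did not overlap, whereas the regulators and transporters, at 8.51 to 8.77 in Tg1MDW/1MDW and 8.65 to 8.83 in WT, overlapped.

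**Figure D2:**
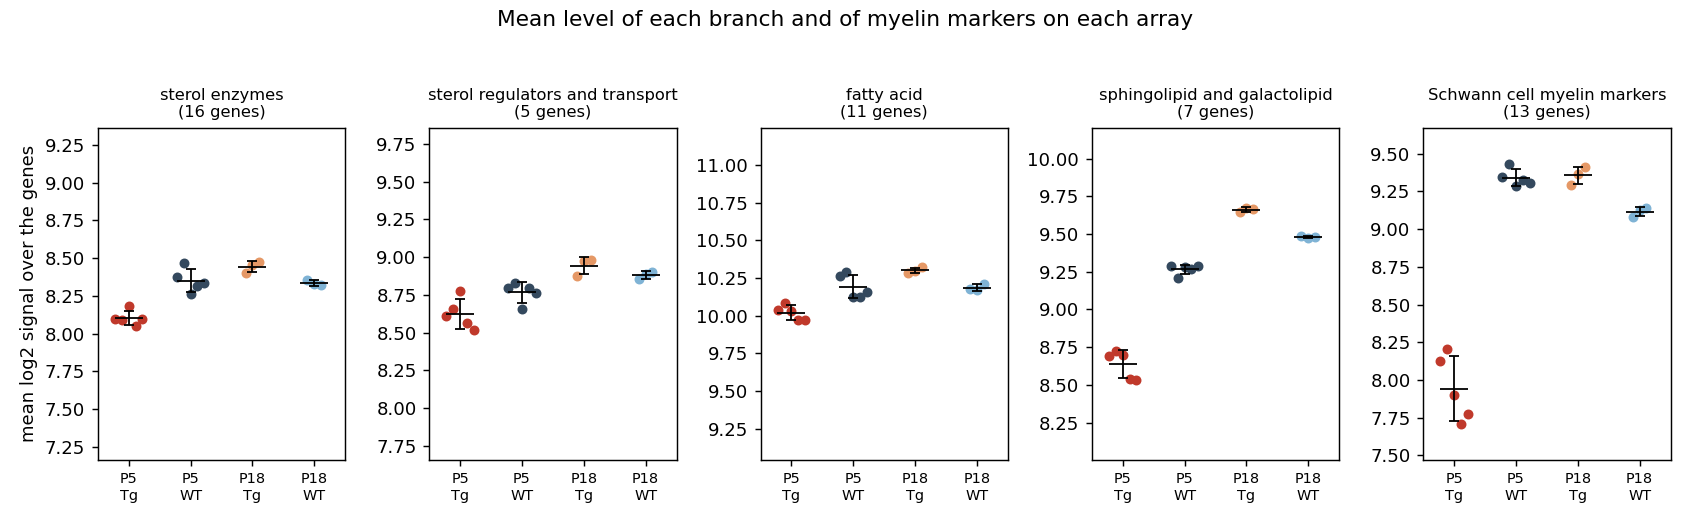
Mean log2 signal (y axis, each panel spanning the same number of log2 units) of the genes of each branch and of 13 Schwann cell myelin markers, for each array of the 4 groups (x axis). Points are arrays, and the bar with whiskers is the mean ± SD. At P5 the gap between Tg1MDW/1MDW and WT is widest for the myelin markers and next for the sphingolipid and galactolipid branch, where Fa2h and Ugt8a contribute changes of -1.97 and -1.51 and the other 5 genes average -0.18.

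Other genes of the same pathways were mostly not called at P5. Of 15 other sterol genes measured, 1 was lower: Lpin1, a phosphatidate phosphatase (log2 change -0.48 ± 0.08 SE, adjusted p = 0.00523, limma). Of 26 other fatty acid genes, 0 were lower and 1 was higher: Acsbg1, an acyl-CoA synthetase (log2 change 0.39 ± 0.08 SE, adjusted p = 0.0271, limma). Of 30 other sphingolipid genes, 0 were called, and at an unadjusted p under 0.05, 7 were lower and 0 higher. Over all genes, 11.5% were lower and 6.15% higher at this p. Median log2 changes of these lists were -0.14, -0.02 and -0.08.

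In the P18-cochlea no member was called in either direction, beside 0.0903% of all genes called lower and 0.532% called higher. At an unadjusted p under 0.05 in limma, 6 members were higher and 0 lower: Hsd17b7, Elovl7, Scd2, Hmgcs1, Nsdhl and Idi1, with log2 changes of 0.17 to 0.37. The same p was reached by 6.49% of all genes higher and 3.65% lower. The log2 change was positive for 31 of 39 members, beside 9050 of all 19937 genes, with a median of 0.13 over the members and -0.02 over all genes. For 21 members every Tg1MDW/1MDW array lay above every WT array, beside 18.1% of all genes, and for 1 member, Fasn, every transgenic array lay below, beside 15.9% of all genes. Branch medians were 0.17 for the sphingolipid and galactolipid genes, 0.14 for the fatty acid genes, 0.09 for the regulators and transporters and 0.08 for the sterol enzymes.

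Ugt8a read 10.08, 10.14 and 10.003 in the 3 Tg1MDW/1MDW cochleae and 9.71, 9.69 and 9.74 in the 3 WT cochleae (log2 change 0.36 ± 0.17 SE, adjusted p = 0.574, limma). Fa2h read 9.41, 9.37 and 9.37 and 9.16, 9.06 and 9.20 (log2 change 0.24 ± 0.15 SE, adjusted p = 0.738, limma). Both were higher in every transgenic array, and neither passed the threshold. Idi1 read 8.62, 8.49 and 8.49 in Tg1MDW/1MDW and 8.13, 8.14 and 8.23 in WT, and Hmgcs1 9.85, 9.90 and 9.86 and 9.51, 9.56 and 9.57. Elovl7 read 9.05, 9.01 and 9.04 and 8.75, 8.73 and 8.70, likewise without overlap. Elovl6 read 9.34, 9.39 and 9.37 and 9.15, 9.13 and 9.42, where WT replicate 3 was above the transgenic arrays. The spread between P18 arrays was small, with an SD of 0.03 in both genotypes for Hmgcs1. Fitted on the P18 arrays alone, Elovl7, Hmgcs1 and Ugt8a were called higher, but so were 305 of all 19937 genes, with 67 lower, against 106 and 18 in the fit of both ages.

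Markers of skeletal muscle also differed at P18. Of 10 measured, 9 were called higher in Tg1MDW/1MDW, with a median log2 change of 2.12 and mean signals of 8.40 to 8.52 in Tg1MDW/1MDW and 6.20 to 6.26 in WT. Their part in the lipid gene values at P18 was not tested. The Schwann cell myelin markers ran from 9.30 to 9.41 in Tg1MDW/1MDW and from 9.08 to 9.14 in WT, and 1 of 13 was called, Pmp2, a myelin lipid-binding protein, which was higher (log2 change 1.57 ± 0.24 SE, adjusted p = 0.00417, limma). Genes of the Schwann lineage apart from myelin ran from 8.28 to 8.32 in Tg1MDW/1MDW and from 8.17 to 8.20 in WT, also without overlap, and 1 of 12 was called, the cadherin Cdh19, which was higher (log2 change 0.73 ± 0.10 SE, adjusted p = 0.00197, limma). The part of Schwann cells in the lipid gene values at P18 was not tested either. Of 10 markers of central oligodendrocytes, 0 were called, and 2 were higher and 0 lower at an unadjusted p under 0.05. Their means ran from 6.94 to 7.01 in Tg1MDW/1MDW and from 6.80 to 6.92 in WT, without overlap. In WT, 8 of these 10 were called higher and 1 lower in the P18-cochlea than in the P5-OC, beside 25% of all genes higher and 25.1% lower. The part of these markers in the lipid gene values was not tested. Of 8 adipocyte markers, 0 were called, and 1 was lower at an unadjusted p under 0.05. Among the other lipid genes, Scd4, a desaturase (log2 change 0.68 ± 0.13 SE, adjusted p = 0.0207, limma), and Acsl4, an acyl-CoA synthetase (log2 change 0.47 ± 0.09 SE, adjusted p = 0.0319, limma), were higher at P18, and none of the other sterol or other sphingolipid genes was called. At an unadjusted p under 0.05, 4 of these 15 sterol and 3 of these 30 sphingolipid genes were higher and 0 lower. Over all genes, 6.49% were higher and 3.65% lower at this p.

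**Figure D3:**
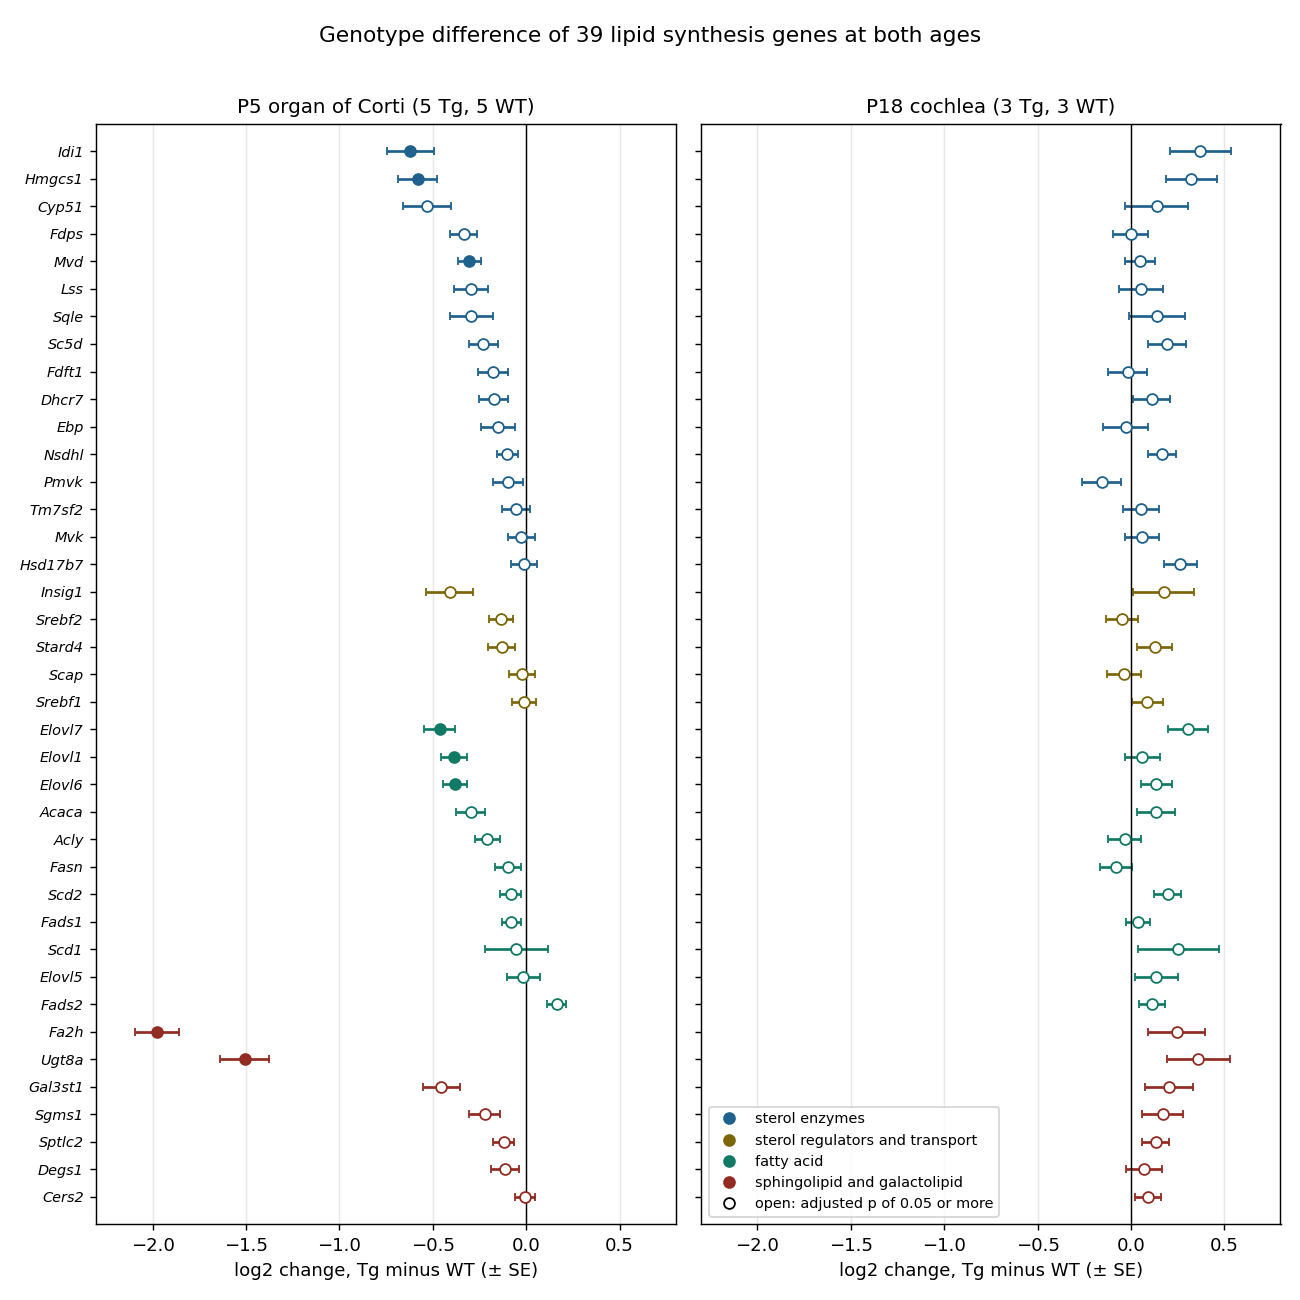
Log2 change (x axis, Tg1MDW/1MDW minus WT, whiskers ± SE) of 39 lipid synthesis genes (y axis) at P5 and at P18, coloured by branch. Filled points have an adjusted p under 0.05. At P5, 38 of 39 points lie left of 0 and 8 are filled, and at P18, 31 lie right of 0 and none is filled.

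The difference between the genotype effects at the 2 ages was tested directly, as the P18 change minus the P5 change. For 6 members it was called higher and for 0 lower, beside 0.818% of all genes higher and 0.0803% lower. At an unadjusted p under 0.05 it was higher for 23 members and lower for 0, beside 10.5% and 6.08% of all genes. It was 2.22 ± 0.19 SE for Fa2h (adjusted p = 1.16e-05, limma) and 1.87 ± 0.22 SE for Ugt8a (adjusted p = 2.18e-04, limma). It was 0.77 ± 0.13 SE for Elovl7 (adjusted p = 0.0117, limma). These 3 were called in all 24 alternatives that changed the fit or the arrays, while at a fold of at least 2 only Fa2h and Ugt8a were left, since the difference for Elovl7 was 1.7-fold. The sterol enzymes Hmgcs1 (0.90 ± 0.17 SE, adjusted p = 0.0219, limma) and Idi1 (0.99 ± 0.21 SE, adjusted p = 0.0417, limma) and the elongase Elovl6 (0.52 ± 0.11 SE, adjusted p = 0.0392, limma) lost the call when quantile normalization was repeated or the Y-linked mean was a covariate. Leaving out Tg1MDW/1MDW replicate 1, 2 or 3 or WT replicate 1 or 2 at P18 also left 3 calls. Mvd and Elovl1, lower at P5, had differences of 0.35 (adjusted p = 0.161, limma) and 0.45 (adjusted p = 0.114, limma). Of the other sphingolipid genes, Samd8, which makes a ceramide phospholipid, was called for this difference (log2 change 0.63 ± 0.13 SE, adjusted p = 0.0291, limma). The difference was not particular to lipid genes. It was called higher for 11 of 13 Schwann cell myelin markers (median 1.23) and 8 of 10 skeletal muscle markers (median 1.86). The median over the members was 0.28. It was also called higher for 2 of 12 other Schwann lineage genes and 1 of 10 oligodendrocyte markers. No adipocyte, hair cell, supporting cell or macrophage marker was called.

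In WT, the P18-cochlea was set against the P5-OC, which differ in dissected tissue as well as age. Of the 39 members, 11 were called higher and 9 lower at P18, beside 25% of all genes higher and 25.1% lower, so the members were called about as often as genes in general. The 2 largest differences were both in late sterol enzymes. Hsd17b7, a ketoreductase of the sterol ring, read 8.45, 8.46 and 8.39 at P18 and 9.85, 9.86, 9.90, 9.76 and 9.92 at P5 (log2 change -1.42 ± 0.08 SE, adjusted p = 7.62e-10, limma). Ebp, a sterol isomerase, read 8.71, 8.70 and 8.59 at P18 and 7.69, 7.31, 7.42, 7.37 and 7.50 at P5 (log2 change 1.21 ± 0.11 SE, adjusted p = 1.17e-07, limma). The groups were widely separate in both, in opposite directions.

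The elongases were also split. Elovl7 was higher at P18 by 0.98 ± 0.10 SE and Elovl1 by 0.29 ± 0.08 SE, whereas Elovl6 had a log2 change of -0.86 ± 0.08 SE and Acaca of -0.69 ± 0.09 SE. Of the desaturases, Scd1 was higher (log2 change 0.76 ± 0.19 SE, adjusted p = 0.00398, limma), and Scd2 and Fads2 were lower, each with a log2 change of -0.31. Scd1 in the P5 arrays read 10.77, 10.62, 10.24, 10.17 and 10.19 in WT and 10.71, 10.86, 9.89, 10.10 and 10.17 in Tg1MDW/1MDW, so that replicates 1 and 2 were above replicates 3 to 5 in both genotypes. Insig1 (0.66), Srebf1 (0.46), Fdps (0.34), Sc5d (0.31) and Pmvk (0.25) were higher at P18, and Mvd (-0.38), Mvk (-0.37), Stard4 (-0.35) and Nsdhl (-0.23) were lower. Degs1 (0.66) and Cers2 (0.36) were higher. Fa2h and Ugt8a had log2 changes of 0.33 (adjusted p = 0.0559, limma) and 0.35 (adjusted p = 0.0705, limma), and Hmgcs1 and Idi1 of -0.01 and -0.06.

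**Figure D4:**
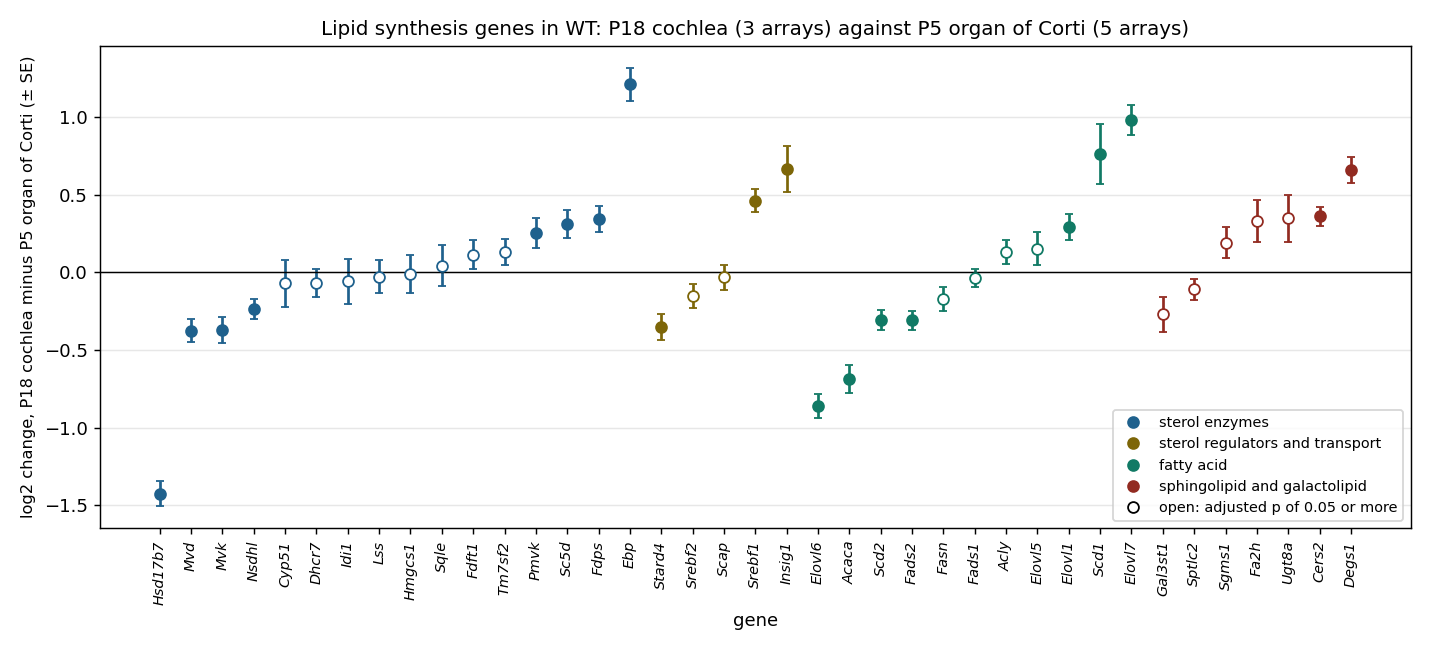
Log2 change (y axis, P18 cochlea minus P5 organ of Corti, whiskers ± SE) in WT for the 39 lipid synthesis genes (x axis), coloured by branch. Filled points have an adjusted p under 0.05. Hsd17b7 (-1.42) and Ebp (1.21) lie at the ends of the range, and filled points lie on both sides of 0.

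These WT values depend on the scaling between ages. Centring each array on its median moved the median of all genes by 0.20, and the count of members then became 19 higher and 3 lower, beside 8251 of all 19937 genes higher and 3116 lower. Hsd17b7, Elovl6 and Acaca were the 3 that were lower under both scalings, while Mvd, Mvk, Nsdhl, Stard4, Scd2 and Fads2 kept a negative sign but were not called. The split changed from 55% of calls higher to 86.4%. Repeating quantile normalization moved the median of all genes from -0.01 to 0.15 and gave 12 members higher and 11 lower, beside 7802 and 4284 of all genes. The medians of the genotype comparisons moved by at most 0.02 under either change.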

How the data were processed

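Per the labels, total RNA was extracted with silica columns from ear tissue kept in RNAlater, biotin labelled and hybridised to Affymetrix MoGene 1.0 arrays. The values used are the log2 signals of 34760 probesets on 16 arrays, already normalized by the authors. Their background correction and normalization method are not given in the sources used here, and the number of arrays limits the precision. The submitters' processing notes name limma. The platform table gave 21640 probesets a single symbol and 1321 several, and probesets with several symbols named no gene. The probeset with the highest mean over all arrays stood for a gene, and Idi1, Fdft1 and Acaca had 2 each.

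The deposited log2 values were fitted with limma 3.58.1 in R 4.3.3, with 4 group means over all 16 arrays, no block and all probesets kept (12 residual and 3.23 prior degrees of freedom). The contrasts were Tg1MDW/1MDW minus WT at each age, their difference, and P18 minus P5 in WT. P-values were adjusted by Benjamini-Hochberg over all probesets. The procedure was tested on simulated data with known changes, drawn as independent normal values with 1 spread per probeset for all arrays. That simulation did not include the P5 replicate split, the Y-linked signal that followed genotype or the smaller spread at P18. It therefore says nothing on how these affect the calls. P-values rest on 1 estimate per probeset of the spread between arrays, shared by both ages. The P18 arrays of a group were closer to each other than the P5 arrays. The labels do not state whether an array is 1 animal, and every P18 array carried both Y-linked and Xist signal. The members and lists were chosen with earlier results of these data known. By rule, all members were accounted for, and those called in a genotype contrast or in the difference received per-array values. Of each other list, at most 4 called genes were named, not always those with the smallest adjusted p. Lists of 15 of 23 other sterol, 26 of 28 other fatty acid and 30 of 32 other sphingolipid genes were measured, and the rest were not analysed here. Alternatives were a replicate block, a term for P5 replicates 1 and 2, a fit for each age alone, removal of dim probesets, repeated quantile normalization, median centring, a trended robust prior, array weights, a Y-linked covariate, other probeset rules, fold limits and leaving out each array.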

Additional observations from a re-analysis of the deposited data

Results flagged for a closer look

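Of 78 groups of 5 P5 arrays tested for a value far from the others, 7 held such an array, and chance gives about 1 in 20. In WT replicate 2, Hmgcs1 was high at 10.03 against 9.38 to 9.54 in the other 4 arrays. In the same array Cyp51 was high at 8.35 against 7.53 to 7.64, and Acly was high at 9.66 against 9.40 to 9.46. Degs1 was low there at 9.67 against 9.95 to 10.02. In Tg1MDW/1MDW replicate 3, Mvk was high at 8.31 against 8.03 to 8.10, and Gal3st1 at 7.36 against 7.11 to 7.16. In Tg1MDW/1MDW replicate 1, Fdft1 was high at 9.43 against 9.15 to 9.23. Of these 7 values, 4 were in WT replicate 2.

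The genotype effect differed between the ages, by the test of the P18 change minus the P5 change in limma, for 6 members. The differences on the log2 scale were 2.22 for Fa2h, 1.87 for Ugt8a, 0.99 for Idi1, 0.90 for Hmgcs1, 0.77 for Elovl7 and 0.52 for Elovl6. Tissue and age change together in this comparison and cannot be told apart.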

How the results depend on the processing

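In the main fit, 8 members and 171 of all genes were called lower at P5. The 8 became 2 in separate fits per age (74 of all genes lower) and 2 with the Y-linked covariate (59 of all genes lower). They became 14 with array weights (808 of all genes lower and 255 higher), 3 at a fold of at least 1.5 and 2 at a fold of at least 2. On leaving out each array they became 5 to 15. The 15 were reached without Tg1MDW/1MDW replicate 3 (1159 of all genes lower). The 5 were reached without Tg1MDW/1MDW replicate 2 (150 of all genes lower) or WT replicate 5 (113 of all genes lower). At P18 the 0 called higher became 3 in separate fits (305 of all genes higher) and 5 with array weights (Elovl7, Hmgcs1, Hsd17b7, Idi1 and Scd2, with 1100 of all genes higher and 480 lower). The 6 called for the difference, beside 163 of all genes higher, became 3 with repeated quantile normalization (131 of all genes higher). They became 20 with array weights (1503 of all genes higher) and 3 with the Y-linked covariate (85 of all genes higher). They became 2 at a fold of at least 2, and 3 to 8 on leaving out each array. In WT, 9 lower and 11 higher became 3 and 19 with centred arrays, 3 and 5 at a fold of at least 1.5, and 1 and 1 at a fold of at least 2. No member called in a genotype contrast or in the difference changed sign under the alternatives run. This check did not cover members that were not called. In WT, Fads1 had a log2 change of -0.04 and was not called, but was called higher at 0.16 with centred arrays. Fasn moved there from -0.17 to 0.02, not called in either.

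Branch medians moved as follows. On leaving out each array, the regulators at P18 ran from 0.0546 to 0.14, the fatty acid genes from -0.18 to -0.0748 at P5 and from 0.0944 to 0.15 at P18, and the sphingolipid genes from -0.30 to -0.17 at P5 and from 0.15 to 0.19 at P18. Repeated quantile normalization gave 0.10 for the fatty acid genes and 0.14 for the sphingolipid genes at P18. Array weights gave -0.30 for the sphingolipid genes at P5 and 0.19 at P18. The causes were not tested.

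Replicate numbers are shared by the genotypes, but same-numbered arrays did not all deviate together. The correlations of their deviations at P5 were 0.29, 0.36, -0.11, 0.20 and -0.22 for replicates 1 to 5. At P18 they ran from 0.0004 to 0.07, so the numbers were not taken as pairs. The study compared WT littermates and describes an ANOVA block design in limma, without naming its blocks. The main fit here had no block and may differ from that design. With the replicate block, 5 members were lower at P5, beside 105 of all genes, and 4 were called higher for the difference, beside 103 of all genes. The block gave no WT comparison between ages, and separate fits gave neither that comparison nor the difference. With 3 arrays a group at P18, small changes there may not be detectable.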
